A study of Mus musculus with 6 samples.

Results

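The unfolded protein response and the chaperones of the cell were followed across cultured mouse enteric glial cells (EGCs), which support the neurons of the intestine, through 37 genes taken by symbol from the deposited count files. The genes code for chaperones and cochaperones of the endoplasmic reticulum (ER), ER oxidoreductases, factors of ER-associated degradation, the ER stress sensors and their transcription factors, targets of ATF4 and CHOP, and heat-shock proteins of the cytosol. They were 37 of 15226 genes that passed a filter on low counts, and all 37 passed it. Bulk RNA sequencing compared 3 control libraries with 3 libraries of cells exposed to lipopolysaccharide (LPS, a component of bacterial outer membranes) at 100 ng/ml for 12 h. Both groups came from the intestines of E14.5 C57BL/6J embryos. The digested tissue was first grown as neurospheres (floating clusters of progenitors) with EGF and FGF, then plated and kept in serum until confluent. The labels gave the control cells no treatment, and neither group carried a transgene or a deletion. The labels did not say whether replicates were separate cultures or how many embryos went into each, so p-values measure the spread between these libraries only.

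Secreted and membrane proteins fold in the ER with the help of chaperones such as BiP and of disulphide isomerases. When unfolded proteins build up there, the sensors IRE1, PERK and ATF6 are activated. IRE1 splices the mRNA of Xbp1, ATF6 is cut to release a transcription factor, and both factors drive ER chaperones and degradation genes. PERK phosphorylates eIF2α, which lowers general translation while the translation of ATF4 goes up, and ATF4 in turn drives CHOP and genes of amino acid metabolism. Other eIF2α kinases feed the same branch, called the integrated stress response. The cytosol has a separate programme under HSF1, with Hsp70, Hsp90 and small heat-shock proteins. Gene counts do not show splicing of Xbp1, cleavage of ATF6 or translation of Atf4.

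Total counts ran from 18775316 to 23664312 per library. Of the glial markers, Sox10 lay between 73.8 and 101 CPM (counts scaled to a common normalized library size) and Gfap between 2.23 and 7.22 CPM. The glial list was not steady after LPS: of 9 markers tested, S100b (log2 fold change −1.91, adjusted p 0.0238) and Cdh19 (−0.66, adjusted p 0.0457) fell, Fabp7 rose (1.29, adjusted p 0.0122) and 6 were not called. The cultures were not glia alone, since 8 mesenchymal markers summed to between 15603 and 16295 CPM in control and between 15123 and 15842 CPM in LPS libraries, and all 12 macrophage markers passed the filter. Of the mesenchymal markers Dcn (log2 fold change 0.90) and Pdgfra (0.50) were called higher, and of the macrophage markers Adgre1 was (2.78); with the replicate block described below, 2 mesenchymal markers were higher and 2 lower, and 4 macrophage markers were higher and 4 lower. Replicate 3 stood apart in both groups: the summed macrophage markers stood at 3888, 4988 and 11592 CPM in control replicates 1, 2 and 3 and at 3940, 5105 and 19088 CPM in the LPS replicates. Counts with and without replicate 3 are therefore given below. A total of 8 smooth muscle markers summed to between 2402 and 2682 CPM in control and between 696 and 982 CPM in LPS libraries, with all 7 tested called lower. The 10 proliferation markers summed to 347, 404 and 702 CPM in control and 315, 258 and 222 CPM in LPS libraries, with a median log2 fold change of −0.86; edgeR called 0 of them, with 8 lower at an unadjusted p under 0.05, DESeq2 called 3 lower and limma-voom 1. The 5 mesothelial markers had a median of −0.82, with 1 called lower and 4 with the block. The part of these markers in the results was not tested. Epithelial markers summed to no more than 2.89 CPM in any library. In these bulk samples, fewer cells of a type and less RNA per cell cannot be told apart.

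After LPS, 13 of the 37 genes rose and 0 fell (edgeR quasi-likelihood test, Benjamini-Hochberg adjusted p under 0.05 over all 15226 genes). Among all genes tested, 9.09% were called higher and 6.71% lower. At an unadjusted p under 0.05, 18 of the 37 were higher and 6 lower, against 16.1% and 16% of all genes. limma-voom called 13 higher and 0 lower, against 8.21% and 6.05%, and DESeq2 called 16 higher and 5 lower, against 13.7% and 11%. The lower counts of the unadjusted test and of DESeq2 were thus near the share over all genes. The median log2 fold change of the 37 was 0.37, with 28 above 0 (75.7%), while the median over all genes was −0.02, with 48% above 0. The called genes were Hspa5, Hsp90b1, Calr, Hyou1, Dnajb9, Dnajb11, Manf, Pdia3, Pdia6, P4hb, Creld2, Syvn1 and Ddit3, of which 11 belong to the folding machinery of the ER. The size of the change was small throughout, with log2 fold changes between −0.69 and 0.83.

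The same-numbered control and LPS libraries deviated together from their group means (r = 0.513, 0.334 and 0.613 over genes). Control 1 with LPS 2 (0.419) and control 2 with LPS 1 (0.323) did so too, so numbers 1 and 2 could not be told apart by this. The labels did not say that numbers mark pairs, and the pairing was taken from these data. With the replicate number added to the model as a block, 23 of the 37 genes were called higher, where 15.4% of all genes were, and 4 lower, where 14.9% of all genes were. All 13 genes called without the block were among the 23. The 10 added were Pdia4, Ern1, Xbp1, Atf4, Hspa1a, Hspa1b, Hsph1, Hspa8, Hsp90aa1 and Dnajb1, and the 4 lower were Atf6, Asns, Sesn2 and Hspb1. With the block and library sizes alone, 15 were called higher and 6 lower, against 10.7% and 27.6% of all genes, and of the 10 added genes Pdia4, Hspa1b and Hsph1 were among the 15. Every LPS library lay above every control library for 17 of the 37 genes, against 19.3% of all genes, and below every control library for 5, against 19.4% of all genes.

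The split depended on the scaling. With library sizes alone, 4 of the 37 genes were called higher and 5 lower, against 6.48% and 13.5% of all genes. With upper quartile factors 6 were higher and 4 lower, against 6.9% and 10.4% of all genes. Library sizes alone moved the median over all genes to −0.18 and called 986 genes higher and 2054 lower, against 1384 and 1022 with the factors used here. The median of the 37 was then 0.22. Ddit3, Hyou1, P4hb and Syvn1 were called higher under both of these scalings.

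**Figure D1:**
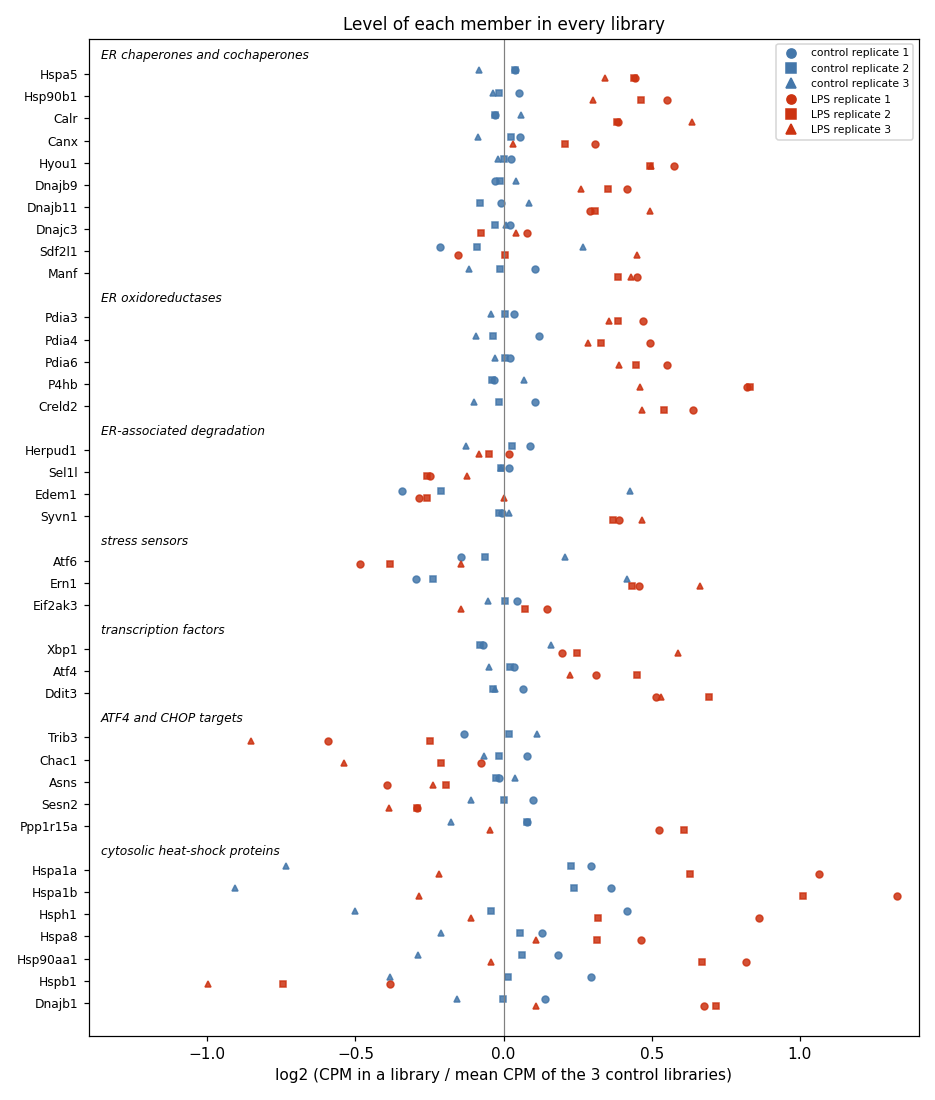
Level of each of the 37 genes in every library, as log2 of its CPM over the mean of the 3 control libraries (x axis, so 0 is the control mean), in rows grouped by role. Blue marks are control and red marks LPS libraries, and the circle, square and triangle stand for replicates 1, 2 and 3. For 17 genes all red marks lie to the right of all blue ones, while for the 7 heat-shock genes the colours overlap and replicate 3 lies at the low end of each group.

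Of the 10 chaperones and cochaperones of the ER, 7 rose, with or without the block, and their median log2 fold change was 0.39. edgeR called 0 lower, also at an unadjusted p under 0.05, as did DESeq2 and limma-voom. Their summed level was 4859, 4765 and 4691 CPM in control replicates 1, 2 and 3, and 6388, 6170 and 6113 CPM in the LPS replicates. Together with the 5 oxidoreductases they took 0.768% to 0.833% of all counts in control and 0.901% to 1.04% in LPS libraries.

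A known promoter sequence occurs in the promoter windows of several of these genes. The element and the gene list were both chosen for ER stress, so their overlap is not a result of these data. The ER stress response element (ERSE), which ATF6 and XBP1 bind together with the general factor NF-Y, is spelled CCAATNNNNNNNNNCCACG. It was searched on both strands of the RefSeq promoter windows (GRCm38.p6, 250 bases before to 50 after each start site), which covered 32 of the 37 genes. No window was at hand for Hyou1, Manf, Atf6, Hspa8 and Hsp90aa1. The exact letters stood in 39 of 32851 promoters (0.119%), and 8 of the 37 genes were among these, with 2 matches in Hsp90b1. The 8 are shown because they split by what was measured: Hspa5, Hsp90b1, Calr, Pdia6, Creld2 and Syvn1 rose, while Canx and Dnajc3 were not called. Each sequence is written 5′ to 3′ on the strand of its gene, and capitals mark the match, which reads CGTGG first where it lies on the other strand.
Hspa5, chr2:34772020-34772048, plus strand: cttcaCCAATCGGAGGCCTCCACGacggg
Hsp90b1 distal, chr10:86705608-86705686, minus strand: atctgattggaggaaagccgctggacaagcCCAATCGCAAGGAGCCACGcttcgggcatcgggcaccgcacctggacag
Hsp90b1 proximal, chr10:86705503-86705581, minus strand: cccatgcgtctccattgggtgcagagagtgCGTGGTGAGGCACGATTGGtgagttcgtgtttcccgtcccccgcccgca
Calr, chr8:84847045-84847123, minus strand: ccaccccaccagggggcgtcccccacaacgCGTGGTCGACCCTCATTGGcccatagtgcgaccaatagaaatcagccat
Pdia6, chr12:17266461-17266539, plus strand: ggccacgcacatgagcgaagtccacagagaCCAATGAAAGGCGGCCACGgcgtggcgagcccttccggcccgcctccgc
Creld2, chr15:88819490-88819568, plus strand: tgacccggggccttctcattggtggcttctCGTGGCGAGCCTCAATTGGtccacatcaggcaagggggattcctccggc
Syvn1, chr19:6046502-6046580, plus strand: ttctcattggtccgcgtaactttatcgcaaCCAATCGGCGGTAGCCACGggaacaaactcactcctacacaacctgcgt
Canx, chr11:50325770-50325848, minus strand: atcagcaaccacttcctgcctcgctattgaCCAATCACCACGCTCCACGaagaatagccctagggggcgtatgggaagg
Dnajc3, chr14:118937797-118937875, plus strand: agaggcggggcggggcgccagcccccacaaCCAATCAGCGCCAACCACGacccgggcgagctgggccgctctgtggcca

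The matches began between 44 bases (Syvn1) and 212 bases (Hsp90b1, distal) upstream of the RefSeq start site, at 65 bases for Hspa5 (where GENCODE has an earlier start, so that the match lies in its first exon), 98 for Pdia6, 105 for Dnajc3, 107 for the proximal match of Hsp90b1, 126 for Creld2, 145 for Canx and 162 for Calr. Of all genes with a match, 16 were tested. The 6 called higher (37.5%) were all among the 37 genes. Over the other 8 tested genes with a match the median was −0.27 on the log2 scale, and edgeR called 0 of them, with 0 higher and 1 lower both at an unadjusted p under 0.05 and by DESeq2. The shorter ERSE-II, ATTGGNCCACG, stood in 12 promoters (0.0365%), of which Dnajb11, called higher, and Herpud1, not called, were among the 37. The unfolded protein response element of XBP1, TGACGTGG, stood in 222 promoters (0.676%) and in none of the 32 windows. Of 113 tested genes that hold it, 18 were called higher (15.9%) and 4 lower (3.54%), beside 9.09% and 6.71% of all genes. A match is a run of letters and not evidence of binding.

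Hspa5 codes for BiP, the Hsp70 of the ER lumen that also holds the sensors inactive, and lies at chr2:34771970-34777547 (GRCm38). It was at 998, 999 and 918 CPM in control replicates 1, 2 and 3 and at 1322, 1319 and 1231 CPM in the LPS replicates. The lowest LPS value stood well above the highest control value, and the log2 fold change was 0.41 ± 0.09 (SE), with an adjusted p of 0.0319. Within each number the LPS library was 1.32 to 1.34 times its control library.

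Hsp90b1, the Hsp90 of the ER (GRP94), was at 1187, 1133 and 1118 CPM in control and 1681, 1582 and 1412 CPM in LPS libraries. Calr, the lectin chaperone calreticulin, was at 1020, 1021 and 1085 CPM in control and 1361, 1359 and 1619 CPM in LPS libraries. Their log2 fold changes were 0.44 ± 0.10 (adjusted p 0.038) and 0.47 ± 0.11 (adjusted p 0.037). LPS replicate 3 had the lowest value of its group for Hsp90b1 and the highest for Calr. The membrane-bound partner of calreticulin, calnexin (Canx), overlapped between groups, at 794 to 876 CPM in control and 861 to 1043 CPM in LPS libraries (adjusted p 0.279).

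Hyou1 codes for a large Hsp70 relative that exchanges the nucleotide of BiP, and lies at chr9:44379490-44392369. It was at 234, 230 and 227 CPM in control and 343, 324 and 325 CPM in LPS libraries. This was the smallest adjusted p of the 37 genes, 0.00801, at a log2 fold change of 0.52 ± 0.07. Manf, a secreted factor that binds BiP, was at 112, 103 and 95.8 CPM in control and 142, 136 and 140 CPM in LPS libraries (log2 fold change 0.43, adjusted p 0.0223).

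Of the J-domain cochaperones of BiP, Dnajb9 and Dnajb11 were called higher and Dnajc3 was not called. Differences between these genes were not tested. Dnajb9 (ERdj4) was at 58.2, 58.9 and 61.2 CPM in control and 79.3, 75.9 and 71.1 CPM in LPS libraries (log2 fold change 0.34, adjusted p 0.0286). Dnajb11 (ERdj3) was at 146, 139 and 156 CPM in control and 180, 182 and 207 CPM in LPS libraries (log2 fold change 0.37, adjusted p 0.0436). Both rose without overlap. Dnajc3 (p58IPK), an inhibitor of eIF2α kinases that also works in the ER lumen, was at 194 to 201 CPM in control and 188 to 209 CPM in LPS libraries, a log2 fold change of 0.02 ± 0.07. Sdf2l1, a partner of the ERdj proteins, ran from 26.6 to 37.2 CPM in control and 27.8 to 42.2 CPM in LPS libraries, with replicate 3 highest in each group. Its log2 fold change was 0.12 (adjusted p 0.722).

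Of the 5 oxidoreductases, which make and rearrange disulphide bonds in client proteins, 4 rose, and Pdia4 was called with the block but not without it. P4hb, protein disulphide isomerase and a subunit of collagen prolyl hydroxylase, lies at chr11:120560298-120573253 and had the largest log2 fold change among those of the 37 genes called without the block, 0.71 ± 0.13 (adjusted p 0.0207). It was at 1102, 1098 and 1183 CPM in control and 1992, 2008 and 1552 CPM in LPS libraries. The 3 LPS values lay far above the controls, but the ratio within a number was 1.81 and 1.83 for replicates 1 and 2 and 1.31 for replicate 3.

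Pdia3 (ERp57), which works on clients of calreticulin and calnexin, was at 1096, 1072 and 1037 CPM in control and 1481, 1396 and 1367 CPM in LPS libraries (log2 fold change 0.40, adjusted p 0.0304). Pdia6 (P5), an isomerase that also binds IRE1, was at 349, 345 and 337 CPM in control and 504, 469 and 451 CPM in LPS libraries (log2 fold change 0.47, adjusted p 0.0161). In both genes the order of the replicates was the same in each group. Creld2, a small ER protein induced by ER stress, was at 37.3, 34.3 and 32.4 CPM in control and 54, 50.5 and 48 CPM in LPS libraries (log2 fold change 0.55, adjusted p 0.0146). Pdia4 (ERp72) was at 263, 236 and 227 CPM in control and 341, 304 and 295 CPM in LPS libraries. Its groups did not overlap and its log2 fold change was 0.37, with an adjusted p of 0.0544 without and 0.0117 with the block.

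Of 4 degradation genes, 1 was called higher without and with the block, and the median log2 fold change was −0.11. edgeR called 0 lower, with 1 at an unadjusted p under 0.05, limma-voom called 0 and DESeq2 called 1, Sel1l. The gene called higher was Syvn1, the ubiquitin ligase HRD1 that marks misfolded ER proteins for the proteasome. It was at 65.6, 65.1 and 66.6 CPM in control and 86.2, 84.9 and 90.9 CPM in LPS libraries, a log2 fold change of 0.41 ± 0.06 (adjusted p 0.0127). Sel1l, the adaptor that holds HRD1 in its complex, was at 289 to 295 CPM in control and 243 to 267 CPM in LPS libraries, so all LPS values lay below, at with a log2 fold change of −0.21 (adjusted p 0.11, 0.0638 with the block, and 0.037 by DESeq2). With library sizes alone, upper quartile factors or replicate 3 left out in both groups it was called lower (adjusted p 0.0229, 0.033 and 0.00964). Herpud1, another part of that complex and a common marker of ER stress, was at 69.9 to 81.3 CPM in control and 72.1 to 77.4 CPM in LPS libraries (log2 fold change −0.04 ± 0.08). Edem1, which directs glycoproteins to degradation, ran from 167 to 285 CPM in control and 174 to 212 CPM in LPS libraries, with replicate 3 highest in each group (log2 fold change −0.18, adjusted p 0.635).

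**Figure D2:**
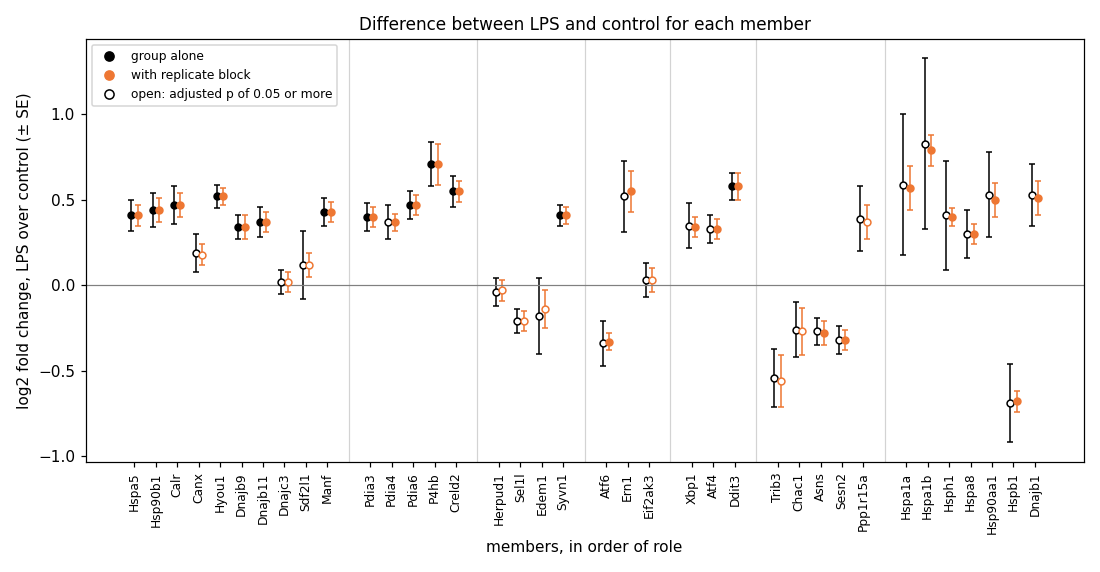
Log2 fold change, LPS over control, of each of the 37 genes with its standard error (y axis; 3 libraries a group), from the edgeR model with the group alone (black) and with the replicate number as a block (orange). Filled points have an adjusted p under 0.05, 13 in black and 27 in orange, and standard errors shrink with the block for the heat-shock genes on the right (from 0.50 to 0.09 for Hspa1b, from 0.18 to 0.10 for Dnajb1) and for some others (from 0.20 to 0.07 for Sdf2l1).

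edgeR called 0 of the 3 sensors without the block, with 1 higher and 1 lower at an unadjusted p under 0.05, and DESeq2 and limma-voom called 0. With the block Ern1 was called higher and Atf6 lower. Ern1 codes for IRE1α, the kinase and endonuclease that splices Xbp1, and lies at chr11:106394650-106487852. It was at 40.2, 41.8 and 65.8 CPM in control and 67.7, 66.5 and 78 CPM in LPS libraries. Control replicate 3 was almost as high as the lowest LPS library. The log2 fold change was 0.52 ± 0.21 (adjusted p 0.15), and 0.55 ± 0.12 (adjusted p 0.0301) with the block. Without control replicate 3 it was 0.80 (adjusted p 0.0124), the only fit with a single library left out that called Ern1. The other such fits gave log2 fold changes down to 0.40 and adjusted p up to 0.365.

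Atf6, the sensor that becomes a transcription factor, lies at chr1:170704674-170867771. It was at 105, 111 and 134 CPM in control and 82.9, 88.9 and 105 CPM in LPS libraries. The groups touched, but each LPS library was at 0.782 to 0.804 times the control library of its number. The log2 fold change was −0.34 ± 0.13 (adjusted p 0.149), and −0.33 ± 0.05 (adjusted p 0.0147) with the block. Eif2ak3, which codes for PERK, was at 50.7, 49.2 and 47.3 CPM in control and 54.3, 51.6 and 44.4 CPM in LPS libraries, a log2 fold change of 0.03 ± 0.10.

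The 3 transcription factors all lay higher in every LPS library than in any control library, and Ddit3 was called. Ddit3 codes for CHOP, the factor downstream of ATF4 that is linked to cell death in lasting stress, and lies at chr10:127290774-127296288. It was at 50.1, 46.7 and 46.9 CPM in control and 68.4, 77.5 and 69.2 CPM in LPS libraries, a 1.5-fold difference of the means (log2 fold change 0.58 ± 0.08, adjusted p 0.00909). A further annotated Ddit3 entry on the same strand overlaps 6.13% of its exon length and genes on the opposite strand 4.73%.

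Atf4 was at 213, 211 and 201 CPM in control and 258, 284 and 243 CPM in LPS libraries (log2 fold change 0.33, adjusted p 0.0506, and 0.0226 with the block). Xbp1, at chr11:5520659-5525893, was at 123, 122 and 144 CPM in control and 148, 153 and 194 CPM in LPS libraries (log2 fold change 0.35, adjusted p 0.136, and 0.0196 with the block). In both groups Xbp1 was highest in replicate 3, and within a number the LPS library was 1.21 to 1.35 times the control.

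Of the 5 targets of ATF4 and CHOP, 4 had every LPS library below every control library, and their median log2 fold change was −0.27. edgeR called 0 of them, with 0 higher and 3 lower at an unadjusted p under 0.05, limma-voom called 0 and DESeq2 called 3 lower. With the block 2 were called lower. Sesn2 (sestrin 2, a stress-induced inhibitor of mTORC1) was at 62.1, 58 and 53.7 CPM in control and 47.4, 47.4 and 44.4 CPM in LPS libraries. Its log2 fold change of −0.32 ± 0.08 sat at the threshold, with an adjusted p of 0.05 that was not under it, and 0.0224 with the block. Asns (asparagine synthetase) was at 77.5, 76.9 and 80.4 CPM in control and 59.6, 68.4 and 66.3 CPM in LPS libraries (log2 fold change −0.27, adjusted p 0.0649, and 0.0399 with the block).

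The C/EBP-ATF response element that ATF4 binds, TGATGNAA, stood on either strand in 1304 promoters (3.97%), among them those of Herpud1, Trib3, Chac1 and Asns. Of 310 tested genes with a match, 34 were called higher (11%) and 18 lower (5.81%), near the shares over all genes (9.09% and 6.71%). Those higher included Slc7a11 and Nupr1, described below. The matches of Trib3, Chac1 and Asns are shown as the ATF4 targets among the 37 genes that hold one, with capitals for the match, which reads TTNCATCA where it lies on the other strand.
Asns, chr6:7693220-7693237, minus strand: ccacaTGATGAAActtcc
Chac1, chr2:119351019-119351086, plus strand: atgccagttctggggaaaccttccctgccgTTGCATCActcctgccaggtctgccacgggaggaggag
Trib3, chr2:152344011-152344076, minus strand: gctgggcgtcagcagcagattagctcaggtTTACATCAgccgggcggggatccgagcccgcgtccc

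Trib3, a pseudokinase that restrains ATF4, was at 30.6 to 36.3 CPM in control and 18.6 to 28.3 CPM in LPS libraries (log2 fold change −0.54 ± 0.17, adjusted p 0.0846). Chac1, which breaks down glutathione, was at 6.98 to 7.71 CPM in control and 5.02 to 6.92 CPM in LPS libraries (log2 fold change −0.26, adjusted p 0.328). Neither was called with the block. Ppp1r15a (GADD34), which brings the phosphatase that reverses eIF2α phosphorylation, pointed the other way, at 37.6, 37.6 and 31.5 CPM in control and 51.2, 54.3 and 34.5 CPM in LPS libraries (log2 fold change 0.39, adjusted p 0.217, and 0.0516 with the block). LPS replicate 3 was the library that overlapped the controls. Without it the gene was called higher (adjusted p 0.0207), the only such call with a single library left out. The other fits of this kind had adjusted p up to 0.48.

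The heat-shock genes of the cytosol differed widely between replicates. edgeR called 0 of 7 without the block, with 1 higher and 1 lower at an unadjusted p under 0.05, limma-voom called 0, and DESeq2 called Dnajb1 higher and Hspb1 lower. With the block 6 were called higher and Hspb1 lower. All 7 overlapped between groups, and replicate 3 was the lowest library of each group for every one of them. Hsph1 overlapped between replicates 1 and 2 as well. Within a number, each LPS library lay on the same side of its control library in 3 of 3 pairs for all 7 genes. The share of all genes that do so was not counted, so this does not set the 7 genes apart. Replicate 3 was also the library with the most macrophage transcripts in each group, as given above, and the part of these in the low heat-shock values was not tested.

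Hspa1a and Hspa1b are the neighbouring, nearly identical genes of inducible Hsp70, at chr17:34969190-34972156 and chr17:34956436-34959238. Of the 50-base words in their exons, 60.3% and 62.3% occur in another gene, mainly in each other, so the split of counts between them is uncertain and their sum was taken too. Together they were at 34.4, 31.9 and 14.9 CPM in control and 65.2, 51.5 and 22.4 CPM in LPS libraries. LPS replicate 3 thus lay below control replicates 1 and 2 while standing above its own control. Apart, Hspa1b was at 26.5, 24.3 and 11 CPM in control and 51.7, 41.5 and 16.9 CPM in LPS libraries, with log2 fold changes of 0.83 ± 0.50 (adjusted p 0.309) without and 0.79 ± 0.09 (adjusted p 0.00774) with the block. Hspa1a, with as few as 94 counts in a library, was at 7.92, 7.57 and 3.88 CPM in control and 13.5, 10 and 5.55 CPM in LPS libraries (adjusted p 0.38, and 0.0393 with the block). A gene on the other strand, Gm20481, overlaps 19% of its exon length. The heat shock element, searched as GAANNTTCNNGAA, stood in 198 promoters (0.603%) and, of the 37 genes, in that of Hsph1. These exact letters were absent from the windows of Hspa1a and Hspa1b, and variants of the element were not searched. No window was at hand for Hspa8 and Hsp90aa1. Of 59 tested genes with a match, 4 were called higher (6.78%) and 1 lower (1.69%), beside 9.09% and 6.71% of all genes.

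Hsp90aa1, the inducible Hsp90 of the cytosol, was at 493, 453 and 355 CPM in control and 765, 690 and 421 CPM in LPS libraries (log2 fold change 0.53, adjusted p 0.209; 0.50 and 0.0257 with the block). The within-number ratio was 1.55 and 1.52 for replicates 1 and 2 and 1.19 for replicate 3. Dnajb1 (Hsp40), which hands clients to Hsp70, was at 47, 42.6 and 38.3 CPM in control and 68.3, 70.2 and 46.1 CPM in LPS libraries (log2 fold change 0.53, adjusted p 0.107, and 0.0265 with the block). Hsph1 (Hsp110), an exchange factor of Hsp70, was at 140, 102 and 74.2 CPM in control and 191, 131 and 97.2 CPM in LPS libraries, so its replicates fell in the same order in each group (adjusted p 0.438, and 0.011 with the block). Hspa8, the constitutive Hsc70, was at 1363, 1295 and 1075 CPM in control and 1716, 1549 and 1344 CPM in LPS libraries (adjusted p 0.205, and 0.0235 with the block).

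Hspb1 (Hsp25), a small heat-shock protein that holds unfolded clients and binds the actin skeleton, went against the others. It lies at chr5:135887919-135889563 and was at 67.3, 55.4 and 42.1 CPM in control and 42.1, 32.8 and 27.5 CPM in LPS libraries. Each LPS library was at 0.591 to 0.653 times its control library. The log2 fold change was −0.69 ± 0.23 (adjusted p 0.0966), and −0.68 ± 0.06 (adjusted p 0.00436) with the block, the smallest blocked value of the 37 genes. Smooth muscle markers, given above, were also lower in LPS, and their part in Hspb1 was not tested. Copies could affect the counts, as 48.8% of the 50-base words of Hspb1 occur in the pseudogene Hsp25-ps1, 47.5% of those of Hsp90aa1 and 38.6% of those of Hspa8 in other pseudogenes.

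**Figure D3:**
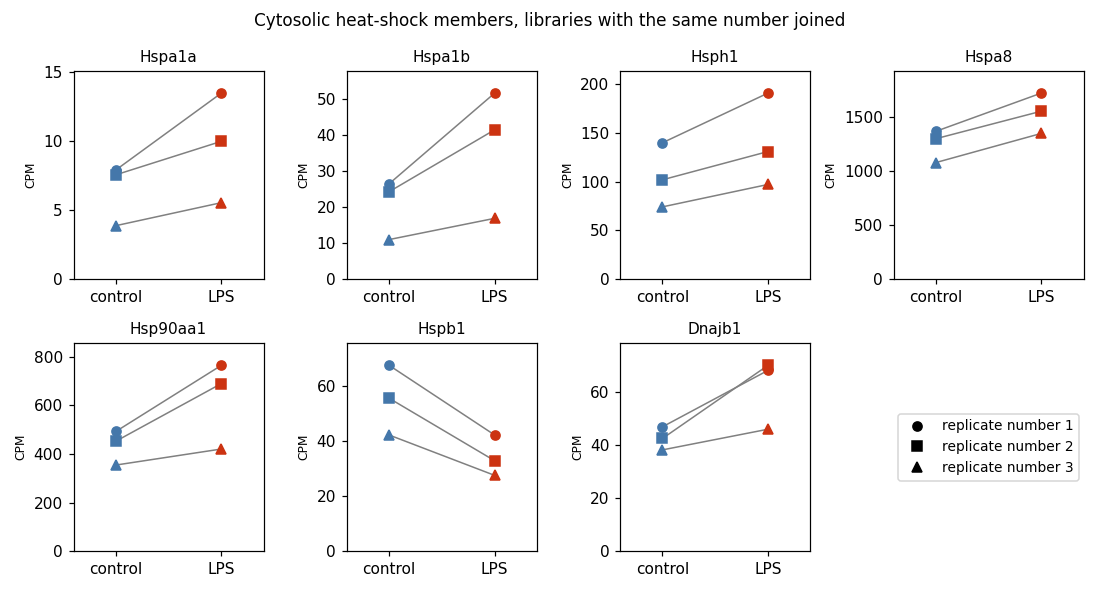
CPM of the 7 cytosolic heat-shock genes (y axis from 0, a scale of its own in each panel) in control (blue) and LPS (red) libraries, with lines joining libraries of the same replicate number. All lines rise except those of Hspb1, which all drop, and the triangles of replicate 3 are lowest in each group (Hspa1b at 11 and 16.9 CPM).

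Levels were compared between genes per kilobase of exon. In control libraries P4hb came first, at 394 ± 16.5 CPM per kb (SD, n = 3), then Calr at 362 ± 13.0, Pdia3 at 340 ± 9.61, Hspa8 at 289 ± 35.0, Hsp90b1 at 284 ± 8.89 and Hspa5 at 230 ± 11 CPM per kb. Hspa8 and Hsp90b1 differed by less than their spread. In LPS libraries P4hb reached 647 ± 90.7, Calr 502 ± 51.7, Pdia3 451 ± 19.1 and Hspa5 305 ± 12.4 CPM per kb, where Calr and Pdia3 differed by less than the SD of Calr. Atf4 led the factors, at 88.3 ± 2.74 CPM per kb in control and 111 ± 8.62 in LPS libraries. The sensors lay near the bottom, with Atf6 at 12.6 ± 1.64, Eif2ak3 at 8.14 ± 0.281 and Ern1 at 6.03 ± 1.75 CPM per kb in control. Hspa1a was last in both groups, at 2.18 ± 0.753 and 3.26 ± 1.34 CPM per kb. Hspb1 went from rank 12 to 19, and Ddit3 from 22 to 15. Sequence shared with copies, given above, leaves the levels and ranks of Hspa1a, Hspa8 and Hspb1 uncertain.

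Beyond the 37 genes, 98 of 99 further genes of the same pathways were tested, Derl3 having been filtered out. The count called was 19 higher and 6 lower, and 33 and 9 with the block, with a median log2 fold change of 0.12. The shares over all genes, given above, were 9.09% and 6.71%, and 15.4% and 14.9% with the block, so the lower counts were not above them. By role, 7 of 23 genes of ER folding and translocation were higher and 0 lower, 2 and 0 of 13 degradation genes, 4 and 2 of 16 sensors, kinases and factors, 4 and 2 of 21 ATF4 targets, and 2 and 2 of 25 heat-shock genes and HSF1 targets. The medians were 0.34 for ER folding, 0.13 for degradation, 0.13 for sensors, kinases and factors, −0.06 for ATF4 targets and 0.08 for heat-shock genes. At an unadjusted p under 0.05, 1 gene of ER folding and 0 of degradation were lower, and DESeq2 called 0 lower in both.

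Several of these genes changed more than any of the 37. Ero1l, the oxidase that recharges protein disulphide isomerase, was at 119, 126 and 115 CPM in control and 728, 933 and 169 CPM in LPS libraries. Its log2 fold change was 2.35 ± 0.60 (adjusted p 0.0498), and LPS replicate 3 stood far below the other LPS libraries, as it did for P4hb. The log2 fold change was 2.79 without it (adjusted p 0.000325), and Ero1l was not called with any other single library left out (adjusted p 0.11 to 0.166). Also among the ER folding genes, Dnajc1 (log2 fold change 0.72) and Ppib (0.52), the cyclophilin of collagen folding, rose, as did Vimp (0.35) and Erlec1 (0.33) of the degradation genes.

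The eIF2α kinase of double-stranded RNA, PKR (Eif2ak2), was at 41.3, 46.3 and 51.4 CPM in control and 174, 188 and 235 CPM in LPS libraries, a log2 fold change of 2.10 ± 0.15 (adjusted p 0.00112). For Eif2ak3, described above, the difference was smaller than its SE. Nupr1 (1.55) and Creb3l1 (1.02), a membrane-bound relative of ATF6, rose as well. Atf3, a factor that ATF4 drives, moved the other way, at 174, 170 and 160 CPM in control and 102, 95.3 and 99.5 CPM in LPS libraries (log2 fold change −0.76 ± 0.07, adjusted p 0.00259), while Ddit3 rose. With single libraries left out, Atf3 was called in 6 of 6 fits and Ddit3 in 5 of 6.

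Slc7a11, the cystine transporter and a target of ATF4 and NRF2, was at 12, 10.9 and 8.6 CPM in control and 208, 270 and 36.3 CPM in LPS libraries (log2 fold change 4.03 ± 0.75, adjusted p 0.0221). LPS replicate 3 was again the lowest of its group, and the call held with 1 of 6 libraries left out, LPS replicate 3 (adjusted p 0.000291). The same was true of Stip1 below. Cebpb (1.31), a partner of CHOP and ATF4, and Stc2 (1.27), a secreted glycoprotein, rose too. Phgdh (−1.14, adjusted p 0.0121) and Pck2 (−0.62, adjusted p 0.0383) of the same list of ATF4 targets were called lower. Of the cytosolic genes, the Hsp70-Hsp90 adaptor Stip1 was at 159, 143 and 132 CPM in control and 388, 374 and 203 CPM in LPS libraries (log2 fold change 1.15, adjusted p 0.0362), Dnajb6 rose (0.59) and Hspa2 fell (−0.88). The master factor of the programme, Hsf1, had a log2 fold change of 0.21 (adjusted p 0.211).

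**Figure D4:**
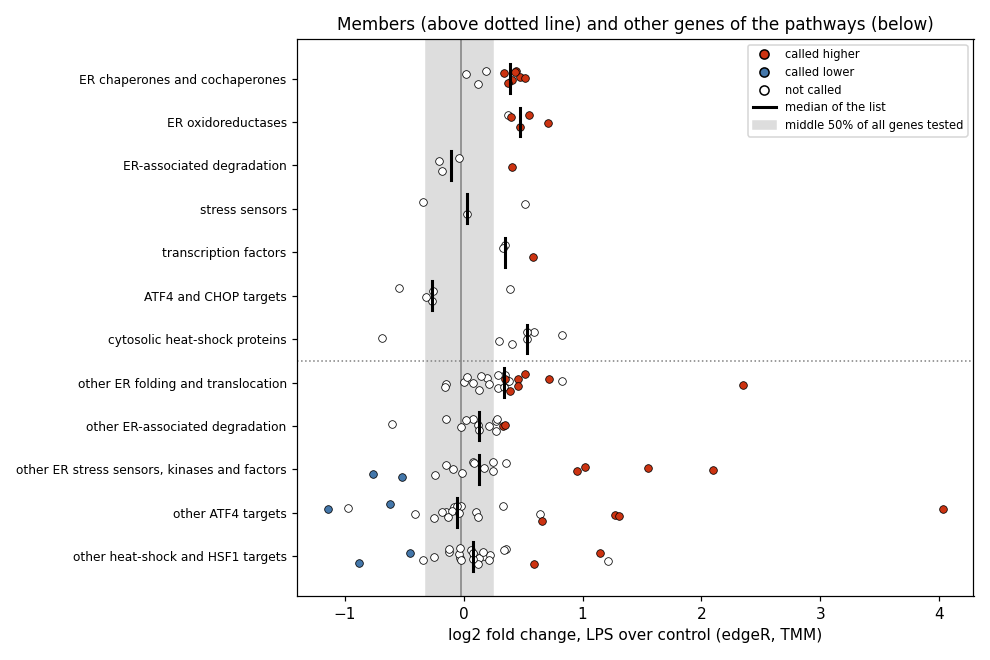
Log2 fold change, LPS over control, of every tested gene of each list (x axis): the 37 genes by role above the dotted line and 98 other pathway genes below. Red points were called higher, blue lower and open points not called, black bars are list medians, and the grey band holds the middle 50% of all 15226 genes. ER chaperones and oxidoreductases lie to the right of the band except for Dnajc3, Sdf2l1 and Canx, and most ATF4 and CHOP targets lie to the left of 0.

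Leaving out single libraries changed the counts. Without control replicate 2, edgeR called 0 of the 37 genes in either direction, with 15 higher and 2 lower at an unadjusted p under 0.05, and 2.44% of all genes were called higher and 0.72% lower. Hyou1 and Ddit3 were the only genes of the 37 called in each of the other 5 fits, and without control replicate 2 their adjusted p was 0.0621 and 0.0654. The count called higher was 3 without control replicate 1 (3.03% of all genes), 10 without control replicate 3 (7.52%), 2 without LPS replicate 1 (3.98%), 2 without LPS replicate 2 (3.36%) and 18 without LPS replicate 3 (12.6%). With replicate 3 of both groups left out, 24 genes were called higher and 5 lower, against 22.6% and 20.4% of all genes in that fit, and the 13 genes called in all libraries were among the 24. Heat-shock genes then included Hspa1a, Hspa1b, Hspa8, Hsp90aa1 and Dnajb1 above and Hspb1 below the controls.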

How the data were processed

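Raw gene counts were deposited, 1 file per library. Per the labels and series text, the authors prepared stranded poly(A) libraries, trimmed reads (cutadapt 1.15), removed contaminants (Bowtie2 2.3.3.1), mapped to GRCm38 (STAR 2.5.2b), processed alignments (SAMtools 1.5) and listed featureCounts 1.5.3. The strand setting and the handling of multiply mapped reads were not given in the sources used here.

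Groups came from sample titles. Counts were filtered (filterByExpr, minimum count 10, minimum total 15), scaled with TMM factors (0.917 to 1.08) and tested with edgeR 4.0.16 (R 4.3.3; quasi-likelihood F-test, two-sided, group alone, Benjamini-Hochberg over 15226 of 46603 identifiers). CPM used the scaled library sizes. The SE was taken from the F statistic, as |log2 fold change|/√F. The test was checked on simulated counts. At this depth 3 counts equal 0.124 to 0.167 CPM, counting error only. Gene positions and exon lengths are from GENCODE M21.

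The 37 genes, the other lists and the rule for naming genes were chosen with earlier results of these data known. All 37 are named, with values in every library for those called with or without the block, the sensors and factors, and those changed at least 1.5-fold between means. Of each further list the called genes with the 3 largest changes are named, plus Atf3, Eif2ak2, Cebpb and Hsf1. The ATF4 targets called lower, Phgdh and Pck2, are named too.

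Alternatives were RLE, upper quartile or no scaling factors, 2 other filters, DESeq2 1.42.0, limma-voom (limma 3.58.1), a replicate block and each library left out. Pairing came from the data: over genes, deviations of same-numbered libraries from their group means correlated at r = 0.513, 0.334 and 0.613, all over 0.1. Control 1 with LPS 2 (0.419) and control 2 with LPS 1 (0.323) were also positive. Leaving out both libraries of number 3, and the block with library sizes alone, were added after seeing the data. Some marker genes are not reported here.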

Additional observations from a re-analysis of the deposited data

How the results depend on the processing

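Over all alternatives, single-gene log2 fold changes of the 37 genes kept direction and side of the threshold in 439 comparisons, passed it newly in 66, lost it in 72 and turned sign in 15. Genes called higher numbered 2079 with DESeq2, 2343 with the replicate block, 3498 with pair 3 left out and 379 to 1964 with single libraries left out. Genes called lower numbered 1589 with upper quartile factors, 2054 with library sizes alone, 1673 with DESeq2, 2273 with the block, 3159 without pair 3, 4203 with block and library sizes, and 112 to 1426 with single libraries left out. Of the 37 genes, 6 were higher with upper quartile factors, 4 with library sizes, 7 without a filter (where 4.48% of all genes were), 23 with the block, 24 without pair 3 and 0 to 18 with single libraries left out; 4, 5, 5, 4, 5 and 6 were lower with upper quartile factors, library sizes, DESeq2, the block, pair 3 left out, and block with library sizes, and 0 to 1 with single libraries left out. Of the other pathway genes, 11, 9, 30, 33 and 44 were higher with upper quartile factors, library sizes, DESeq2, the block and pair 3 left out, and 4 to 27 with single libraries left out; 10, 11 and 23 were lower with library sizes, without pair 3, and with block and library sizes, and 1 to 6 with single libraries left out.

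Signs turned for Dnajc3 (−0.09 with upper quartile factors, −0.14 with library sizes, with or without the block, −0.00068 without a filter), Eif2ak3 (−0.07, −0.12 and −0.13 with upper quartile factors, library sizes, and block with library sizes), Sdf2l1 (−0.03 and −0.04 with library sizes, without and with the block) and Edem1 (0.02 without pair 3). With single libraries left out, log2 fold changes ran from −0.01 to 0.06 for Dnajc3, −0.03 to 0.11 for Eif2ak3, −0.07 to 0.29 for Sdf2l1, −0.08 to 0.02 for Herpud1 and −0.31 to 0.11 for Edem1. The median over all genes was itself at −0.12 with upper quartile factors and −0.18 with library sizes. Causes of the changes of sign were not tested. The 37 genes had at least 94 counts in every library; whether depth limited the calls was not tested.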
